A study of Caenorhabditis elegans with 12 samples.

Results

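The miRNAs described here are the products of 3 C. elegans hairpins, mir-72, mir-73 and mir-74. Their members were taken by name, as every entry of the miRNA count table called miR-72, miR-73 or miR-74 with an arm (5p or 3p, the side of the hairpin from which the mature strand is cut). This gave 6 of the 263 miRNAs listed: cel-miR-72-5p, cel-miR-72-3p, cel-miR-73-5p, cel-miR-73-3p, cel-miR-74-5p and cel-miR-74-3p. Small RNA was sequenced from whole wild-type N2 worms kept on the treatments for 5 d at 20 °C from the L4 larval stage, with 3 libraries in each of 4 groups. Control worms were untreated, Glu worms received 2% glucose, DMSO + Glu worms received 2% glucose with the solvent DMSO, and Nar + Glu worms received 2% glucose with 25 μM naringin (Nar, a citrus flavonoid) in that solvent. All groups were fed OP50 bacteria, and progeny were removed daily. No source used here says whether replicates were separate cultures, so p-values measure only the spread between these libraries.

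A miRNA is a short RNA that guides an Argonaute protein to complementary sites in messenger RNAs, which are then repressed or degraded. Pairing rests mainly on the seed, a run of bases near the 5′ end of the miRNA, and miRNAs with the same seed are grouped as a family because they can recognise the same sites. miR-72-5p, miR-73-3p and miR-74-3p form the worm family whose seed resembles that of miR-31 of flies and mammals. One of the arms of a hairpin is usually kept in Argonaute and the other is mostly discarded, so the arms of 1 precursor can differ greatly in abundance.

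The genes lie in separate places of the WBcel235 assembly. The mir-72 gene is on chromosome II (2452838 to 2452936, plus strand), 33 bp from pqn-42 and 1890 bp from vab-19, and it overlaps no annotated gene. mir-73 (2368765 to 2368863) and mir-74 (2369043 to 2369139) are neighbours on the plus strand of chromosome X with 179 bp between them. mir-73 overlaps no other annotated gene, whereas mir-74 overlaps the non-coding RNA T24D8.14 on its own strand and T24D8.16 on the opposite strand. A further miRNA gene of another family, mir-75 (2372453 to 2372549), starts 3313 bp downstream of mir-74. The mature arms are annotated at lengths of 22 to 24 nt, so counts of different members were compared without a correction for length.

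The dominant arm was the family arm of each hairpin, miR-72-5p, miR-73-3p and miR-74-3p. The level of each miRNA is given in counts per 1000000 (CPM), with library sizes adjusted by the trimmed mean of M-values (TMM), a factor computed after extreme miRNAs are set aside. Over the 12 libraries miR-72-5p averaged 28573 CPM and ranked 8 of 263, between miR-39-3p (29496 CPM) and miR-80-3p (28513 CPM). miR-73-3p averaged 2932 CPM (rank 27) and miR-74-3p 301 CPM (rank 68), so the family arms stood on very different levels. The opposite arms averaged 50.7 CPM for miR-72-3p, 98.5 CPM for miR-73-5p and 87.2 CPM for miR-74-5p. The commoner arm exceeded the scarcer one 563-fold for miR-72, 29.8-fold for miR-73 and 3.46-fold for miR-74. mir-74 was thus the hairpin with the most even arms, although its family arm was the least abundant of the 3.

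**Figure D1:**
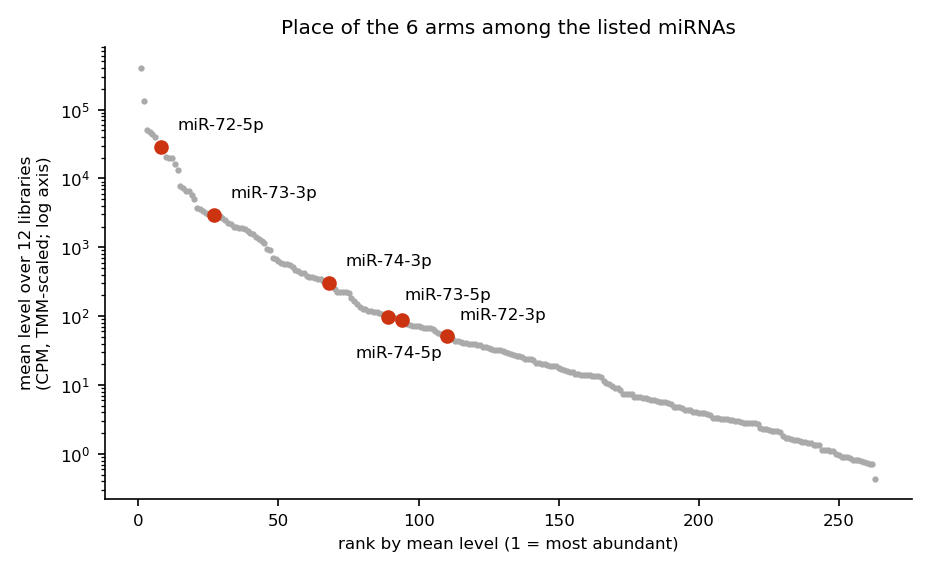
Mean level over the 12 libraries (CPM, TMM-scaled, log axis) against rank for all listed miRNAs (grey points), with the 6 arms of mir-72, mir-73 and mir-74 in red. miR-72-5p sits at rank 8, miR-73-3p at rank 27 and miR-74-3p at rank 68, and the 3 opposite arms lie between ranks 89 and 110.

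Library totals were 4990586 to 5868806 counts in Control and 2640879 to 4029351 in the 9 libraries on glucose. All 6 members were counted in every library, with the lowest count at 111 for miR-72-3p in Glu replicate 1 (95% Poisson interval 91.3 to 134, for counting error only). The most abundant miRNA, miR-1-3p of muscle, took 32.7% ± 3.29 (SD, n = 3) of the counts in Nar + Glu, 39.7% ± 1.17 in DMSO + Glu, 42.3% ± 1.94 in Glu and 43.7% ± 5.14 in Control. TMM gave factors of 1.17 to 1.31 to the Nar + Glu libraries and of 0.770 to 1.00 to the remaining 9. Scaling by library totals in place of TMM moved the median log2 fold change (log2FC) of all miRNAs from −0.06 to 0.37 for Nar + Glu against DMSO + Glu, from 0.03 to 0.49 against Control and from 0.09 to 0.50 against Glu. In the comparisons without Nar + Glu it lay between −0.02 and 0.09 under both scalings. Members were therefore also compared with each other within a library, where the scaling cancels. Replicates 1 and 2 of Nar + Glu were the closest replicate pair, with a chi-square of 18.7 per degree of freedom where other pairs had 59.6 to 667.

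Other tissues were followed through marker miRNAs. Those of hypodermis and seam (let-7-5p, miR-48-5p, miR-84-5p, miR-241-5p and lin-4-5p) summed to 11775 to 13751 CPM in the Nar + Glu libraries, 15523 to 15991 CPM in those of DMSO + Glu, 16414 to 22672 CPM in Glu and 22851 to 31926 CPM in Control. With TMM, 4 of these 5 markers fell from DMSO + Glu to Nar + Glu and 2 from Glu to Nar + Glu. Against Control, 5 of them were lower in Nar + Glu, 4 in DMSO + Glu and 1 in Glu. Each of these had an adjusted p under 0.05 in edgeR. By library totals, 2 of all 219 miRNAs were lower in Nar + Glu than in DMSO + Glu by this test. Not all 4 falls therefore kept their call under that scaling. The muscle marker miR-1-3p lay at 220040 to 295403 CPM in Nar + Glu, 399218 to 429845 CPM in DMSO + Glu, 403924 to 561452 CPM in Glu and 393217 to 575596 CPM in Control. Of the 5 neuronal markers, summing to 542 to 907 CPM over the libraries, 0 passed the test between Nar + Glu and DMSO + Glu, while 2 were higher in Nar + Glu than in Control, 1 in DMSO + Glu and 2 in Glu. Of the 2 intestinal markers (1479 to 2005 CPM) 1 was lower in Nar + Glu than in Control, and 0 passed it in the other comparisons. Of the 8 embryonic markers of the miR-35 family (98962 to 168323 CPM), 1 was lower in Nar + Glu than in DMSO + Glu, whereas 3 were higher in Nar + Glu than in Control, 2 in DMSO + Glu and 1 in Glu, and 1 was higher in Nar + Glu than in Glu. Among all miRNAs tested, 21.5% had an adjusted p under 0.05 in Nar + Glu against DMSO + Glu and 9.13% against Glu. Against Control the share was 47.5% in Nar + Glu, 22.3% in DMSO + Glu and 8.52% in Glu. None of the markers was at 0, and their part in the results was not tested. In whole worms, fewer cells of a type and less of a miRNA per cell cannot be told apart.

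The first comparison asks what Nar adds to worms on glucose and solvent, Nar + Glu against DMSO + Glu. The family arms did not move together. miR-72-5p fell and miR-74-3p rose, while miR-73-3p was higher in every Nar + Glu library but did not pass the test. All 6 members passed the filter on low counts here and in every other comparison. Of these, 1 rose and 1 fell with an adjusted p under 0.05, against 21.5% of the 219 miRNAs tested. The study's thresholds (a fold change above 1.5 either way and an unadjusted p under 0.05) were passed by 0 members and by 13.2% of all miRNAs. The median log2FC was 0.07 over the 6 members and −0.06 over all miRNAs tested. By the same thresholds DESeq2 also passed 0 members, and 24 of the 219 miRNAs tested. An unadjusted p under 0.05 in edgeR was reached by 2 members and by 72 of the 219 miRNAs. Where levels of a member are said below not to overlap between groups, this only describes the libraries. How many of all miRNAs separate in that way was not counted.

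miR-72-5p, the abundant product of the chromosome II gene, was at 33548, 32107 and 31391 CPM in DMSO + Glu replicates 1 to 3 and at 28066, 25426 and 25837 CPM in those of Nar + Glu. The groups did not overlap, with all of Nar + Glu lower. Its log2FC was −0.36 (standard error 0.114, Benjamini-Hochberg adjusted p = 0.0378 in the quasi-likelihood test of edgeR). Scaled by library totals it was 0.08 (adjusted p = 0.568 in edgeR). Relative to the median of all miRNAs it was −0.29 under both scalings. A change of scaling moves all miRNAs nearly alike, so this agreement does not test the fall of miR-72-5p. Without any 1 of the 6 libraries the adjusted p in edgeR was above 0.05, from 0.0662 without DMSO + Glu replicate 3 to 0.258 without Nar + Glu replicate 2.

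miR-74-3p, the scarcest family arm, was at 273, 244 and 264 CPM in DMSO + Glu and at 375, 334 and 334 CPM in Nar + Glu. All 3 Nar + Glu libraries lay above all 3 of DMSO + Glu, as they did for miR-73-3p. The log2FC of miR-74-3p was 0.35 with TMM (standard error 0.119, adjusted p = 0.0468 in edgeR with Benjamini-Hochberg adjustment). By library totals it was 0.79 (adjusted p = 4.67e-05 in edgeR), but that scaling called 91 of the 219 miRNAs, 89 of them higher. With TMM, the adjusted p of miR-74-3p in edgeR was 0.0651, 0.138 and 0.106 without DMSO + Glu replicates 1, 2 and 3. It was 0.121 without Nar + Glu replicate 1 and 0.0674 with all 12 libraries in 1 fit.

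miR-73-3p, from the same chromosome X cluster as miR-74-3p, was at 2862, 3019 and 2723 CPM in DMSO + Glu and at 3537, 3142 and 3468 CPM in Nar + Glu. The log2FC was 0.17 with TMM (standard error 0.114, adjusted p = 0.304 in edgeR) and 0.61 by library totals (adjusted p = 0.000339). With TMM it was 0.27 without DMSO + Glu replicate 2 and 0.29 without Nar + Glu replicate 2. Of the opposite arms, miR-73-5p had a log2FC of 0.22 (adjusted p = 0.304), miR-72-3p of −0.30 (adjusted p = 0.165) and miR-74-5p of −0.04 (adjusted p = 0.855), all in edgeR with Benjamini-Hochberg adjustment. By library totals these became 0.65 (adjusted p = 0.00115), 0.14 (adjusted p = 0.533) and 0.40 (adjusted p = 0.0466) in edgeR. miR-72-3p was at −0.15 without either DMSO + Glu replicate 2 or Nar + Glu replicate 3, and miR-73-5p at 0.38 without DMSO + Glu replicate 3 and 0.34 without Nar + Glu replicate 2.

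**Figure D2:**
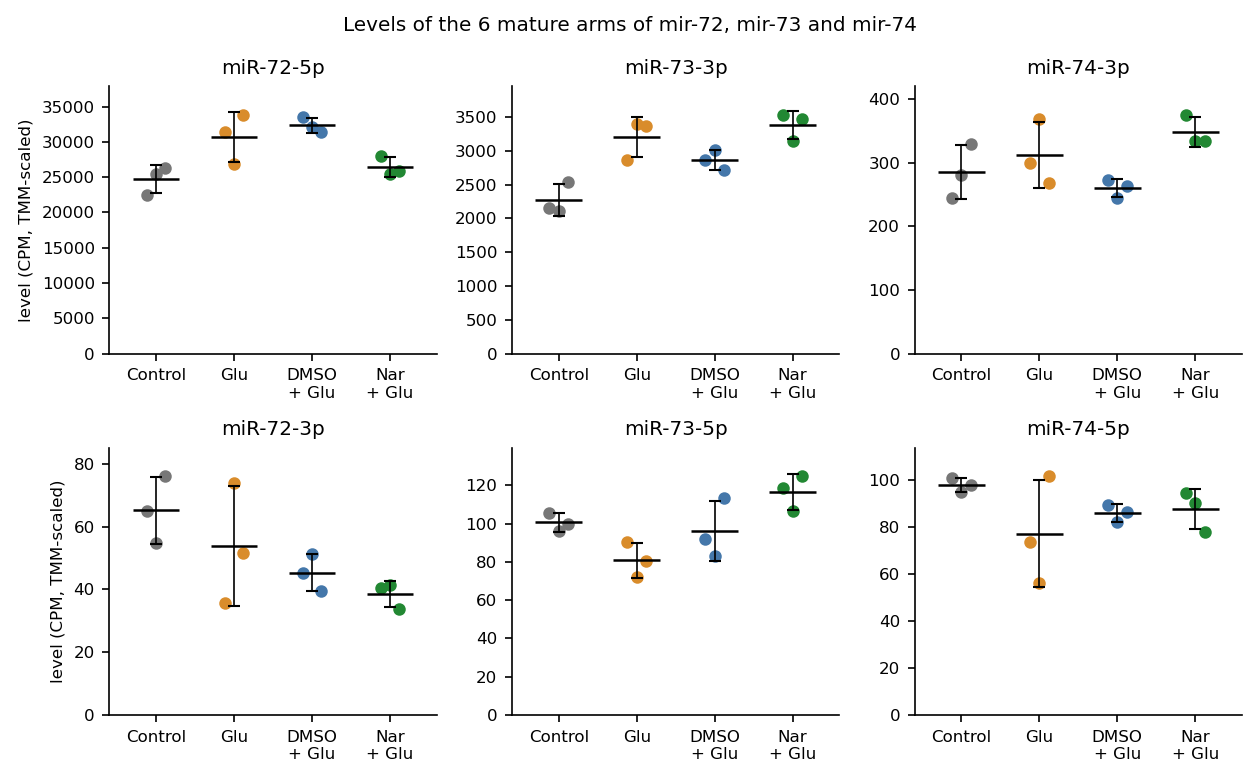
Level of each arm (CPM, TMM-scaled, axes from 0) in the 3 libraries of each group (points), with the mean (line) and SD (bar). In Nar + Glu, miR-72-5p lies at 25426 to 28066 CPM, below the 31391 to 33548 CPM of DMSO + Glu, while miR-73-3p and miR-74-3p lie above their DMSO + Glu libraries.

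The ratio of 2 members within a library does not depend on the scaling, and it separated Nar + Glu from DMSO + Glu. The log2 ratio of miR-74-3p to miR-72-5p was −6.94, −7.04 and −6.89 in DMSO + Glu and −6.22, −6.25 and −6.27 in Nar + Glu. The means differed by 0.71 ± 0.0446 (standard error), 1.63 times more miR-74-3p per miR-72-5p with Nar. The log2 ratio of miR-73-3p to miR-72-5p was −3.55, −3.41 and −3.53 in DMSO + Glu and −2.99, −3.02 and −2.90 in Nar + Glu. Here the means differed by 0.53 ± 0.0563 (standard error), or 1.44 times. Both chromosome X miRNAs thus gained on miR-72-5p in 3 of 3 Nar + Glu libraries relative to DMSO + Glu, with no overlap between these groups. Nar + Glu overlapped Glu in both ratios, with differences of 0.29 for miR-73-3p and 0.38 for miR-74-3p (two-sided exact permutation p = 0.3 and 0.4). It lay above Control without overlap, by 0.48 and 0.20. DMSO + Glu differed from Control by −0.51 without overlap for miR-74-3p and by −0.05 with overlap for miR-73-3p. Against DMSO + Glu the exact permutation p was 0.1 for each ratio, two-sided, the smallest that 3 libraries against 3 allow. After Benjamini-Hochberg adjustment over the 96 ratio and share tests made, it was 0.213. A p of 0.1 was reached by 45 of these 96 tests, so full separation of the groups compared was common among them. None of the 96 had an adjusted p below 0.213.

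The neighbours miR-73-3p and miR-74-3p kept closer to each other. Their log2 ratio (miR-74-3p to miR-73-3p) was −3.28 ± 0.0803 in Nar + Glu against −3.46 ± 0.144 in DMSO + Glu (SD, n = 3 each), and the groups overlapped. Control stood apart for this pair. The ratio was −3.14, −2.91 and −2.95 there, above all 9 libraries on glucose, and the difference to Glu was −0.37 ± 0.156 (standard error; two-sided exact permutation p = 0.1, the smallest possible). On glucose there was less miR-74-3p per miR-73-3p, at 0.822 times the Control ratio in Nar + Glu, 0.773 times in Glu and 0.725 times in DMSO + Glu. The neighbours were thus not the closest pair against Control, where their log2 ratio differed by −0.28, −0.37 and −0.46 in these groups. The log2 ratio to miR-72-5p differed by 0.48, 0.19 and −0.05 for miR-73-3p and by 0.20, −0.18 and −0.51 for miR-74-3p.

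The make-up of the family followed these ratios. miR-72-5p supplied 86.9% ± 0.406 (SD, n = 3) of the counts of the 6 arms in Nar + Glu, 90.6% ± 0.342 in DMSO + Glu, 89.1% ± 1.69 in Glu and 89.8% ± 0.732 in Control. From DMSO + Glu to Nar + Glu, the share of miR-73-3p went from 8.03% ± 0.392 to 11.1% ± 0.432 and that of miR-74-3p from 0.729% ± 0.0389 to 1.143% ± 0.0228 (SD, n = 3 each). DMSO + Glu was the lowest group for both. The share of miR-73-3p was 9.39% ± 1.44 in Glu and 8.23% ± 0.630 in Control (SD, n = 3 each). That of miR-74-3p was 0.921% ± 0.247 in Glu and 1.03% ± 0.0791 in Control. As a share of all counts of a library, the 6 arms took 3.81% ± 0.0978 (SD, n = 3) in Nar + Glu, 3.45% ± 0.137 in DMSO + Glu, 3.14% ± 0.507 in Glu and 2.52% ± 0.215 in Control. Counting error was small beside this spread, with 95% Wilson intervals of at most ±0.0234 percentage points per library. The share was 0.36 percentage points higher in Nar + Glu than in DMSO + Glu (two-sided exact permutation p = 0.1, the smallest possible). With miR-1-3p, whose share was lower in Nar + Glu, left out of the total, this difference was −0.06 percentage points (two-sided exact permutation p = 0.8). With TMM-scaled library sizes it was −0.53 percentage points, Nar + Glu being lower (two-sided exact permutation p = 0.1, the smallest possible).

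**Figure D3:**
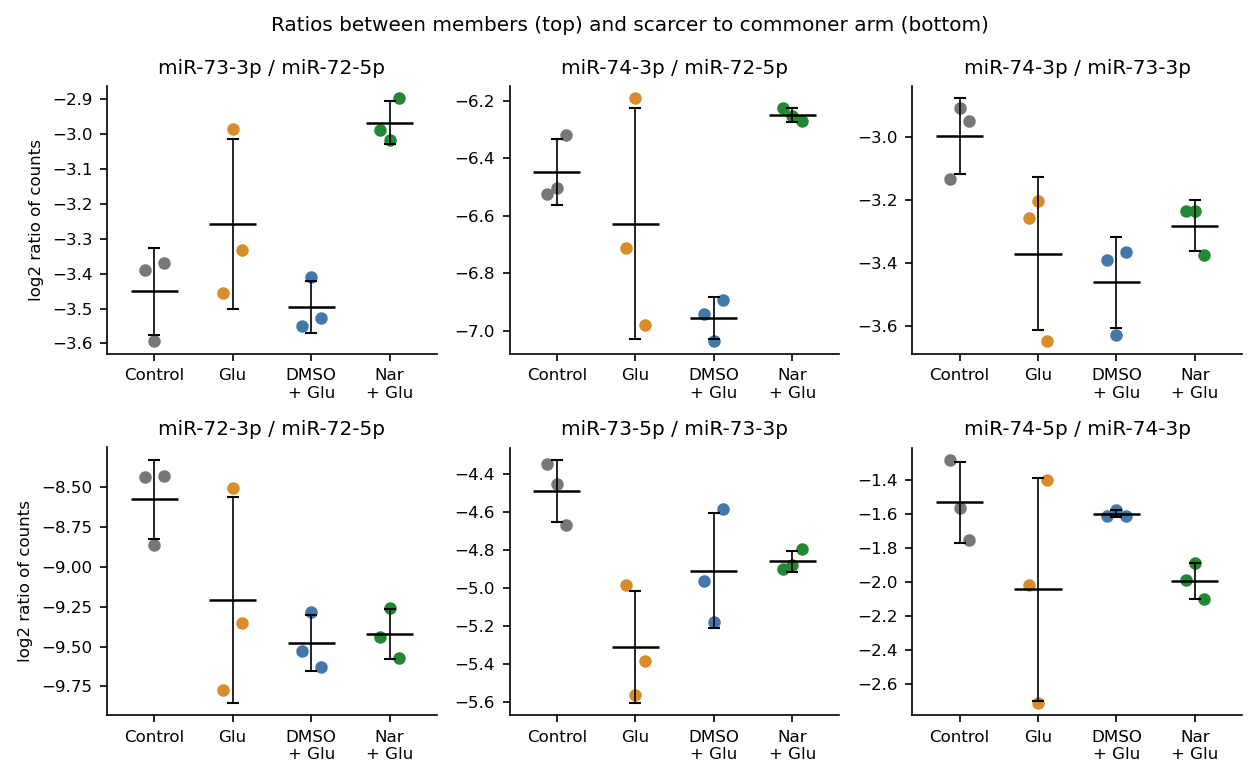
Log2 ratios of counts between members (top) and of the scarcer to the commoner arm of each hairpin (bottom), per library (points) with the mean (line) and SD (bar) of each group. The ratios of miR-73-3p and miR-74-3p to miR-72-5p are higher in all 3 Nar + Glu libraries than in DMSO + Glu, and the ratio of miR-73-5p to miR-73-3p is lower in all 3 Glu libraries than in Control.

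The second comparison, Glu against Control, asks what 2% glucose alone changes. With an adjusted p under 0.05 in edgeR, 0 of the 6 members were called, against 8.52% of the 223 miRNAs tested. An unadjusted p under 0.05 in edgeR was reached by 1 member, miR-73-3p, and by 55 of the 223 miRNAs. DESeq2 called 23 of the 223 miRNAs by adjusted p, and miR-73-3p was the 1 member among them (adjusted p = 0.0138). Past the study's thresholds were 0 members in either tool and 13.9% of all miRNAs in edgeR. miR-73-3p was at 2152, 2111 and 2545 CPM in Control and at 2862, 3400 and 3364 CPM in Glu. Each Glu library was above each Control library. The log2FC was 0.47 (standard error 0.152, adjusted p = 0.0515 in edgeR), and with 1 library left out the adjusted p in edgeR ran from 0.0195 to 0.204. It was under 0.05 without Glu replicate 1 (0.0334) or Glu replicate 3 (0.0195), and above it without Glu replicate 2 (0.171) or Control replicates 1, 2 and 3 (0.132, 0.204 and 0.118).

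The other family arms were less distinct on glucose. miR-72-5p was at 22536, 25495 and 26289 CPM in Control and at 31382, 26934 and 33860 CPM in Glu. The groups stood apart narrowly, between 26289 and 26934 CPM, and the log2FC was 0.27 (standard error 0.166, adjusted p = 0.312 in edgeR). miR-74-3p was at 245, 281 and 329.6 CPM in Control and at 299, 369 and 268 CPM in Glu. It overlapped between the groups (log2FC 0.10, standard error 0.173, adjusted p = 0.777 in edgeR) and had a log2FC of −0.06 without Glu replicate 2.

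The opposite arms had negative log2FC in Glu, and 0 of these 3 arms passed the test in edgeR. The log2FC was −0.35 for miR-73-5p, −0.38 for miR-74-5p and −0.31 for miR-72-3p, with adjusted p-values of 0.202, 0.218 and 0.406 in edgeR. Single Glu libraries moved these values. miR-74-5p had a log2FC of −0.56 (adjusted p = 0.0195 in edgeR) without Glu replicate 3 and of −0.21 (adjusted p = 0.556 in edgeR) without Glu replicate 2, and miR-72-3p of −0.08 without Glu replicate 1 and of −0.62 without Glu replicate 2. The arms of miR-73 stood apart between these groups. The log2 ratio of miR-73-5p to miR-73-3p was −4.35, −4.45 and −4.67 in Control and −4.98, −5.56 and −5.38 in Glu. The means of this ratio differed by −0.82 ± 0.195 (standard error) with no overlap (two-sided exact permutation p = 0.1, the smallest possible). miR-73-5p made up 4.27% ± 0.459 of the counts of its hairpin in Control and 2.49% ± 0.510 in Glu (SD, n = 3 each). Its share was 3.33% ± 0.124 in Nar + Glu and 3.26% ± 0.673 in DMSO + Glu (SD, n = 3 each). The highest DMSO + Glu library (4.00%) lay above the lowest Control library (3.77%).

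The arms of mir-72 and mir-74 varied more between Glu libraries. The log2 ratio of miR-72-3p to miR-72-5p was −8.44, −8.86 and −8.43 in Control but −9.77, −8.51 and −9.35 in Glu, so Glu replicate 2 fell within the Control range. That of miR-74-5p to miR-74-3p ran from −2.71 in Glu replicate 2 to −1.40 in Glu replicate 3, a range that held Control replicates 2 and 3 (−1.56 and −1.75) but not replicate 1 (−1.28). In DMSO + Glu this ratio was tight, at −1.61, −1.57 and −1.61, and it was lower in Nar + Glu, at −1.99, −1.89 and −2.10. The difference with Nar was −0.39 ± 0.0619 (standard error; two-sided exact permutation p = 0.1, the smallest possible). No such difference was detectable for the arms of miR-72 (0.06) or miR-73 (0.05), whose groups overlapped (two-sided exact permutation p = 0.7 and 0.8).

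The third comparison, DMSO + Glu against Glu, asks what the solvent changes. Of the 6 members, 0 had an adjusted p under 0.05 in edgeR or DESeq2 and 0 an unadjusted one under 0.05 in either tool. Of the 215 miRNAs tested, 0 (0%) had an adjusted p under 0.05 in either tool and 22 an unadjusted one in edgeR. Past the study's thresholds were 0 members and 6.05% of all miRNAs. The log2FC of the members ran from −0.24 for miR-74-3p to 0.27 for miR-73-5p, with standard errors of 0.130 to 0.235, so that changes of this size could not be told from the spread between libraries. Without Glu replicate 2, the log2FC of miR-72-3p went from −0.21 to 0.12 and that of miR-74-3p to −0.06, and without DMSO + Glu replicate 3 that of miR-73-5p was 0.13.

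Set against Control, the 2 further groups on glucose gave more calls, in libraries that the comparisons share. In DMSO + Glu, miR-72-5p and miR-73-3p rose and miR-72-3p fell, so that 3 of 6 members had an adjusted p under 0.05, against 22.3% of the 220 miRNAs tested. The log2FC was 0.43 (standard error 0.137) for miR-72-5p, 0.38 (standard error 0.122) for miR-73-3p and −0.48 (standard error 0.151) for miR-72-3p, with adjusted p-values of 0.0287, 0.0285 and 0.0285 in edgeR. Past the study's thresholds were 0 members and 11.8% of all miRNAs. The arms of mir-72 therefore moved apart in DMSO + Glu, where miR-72-3p was at 45.3, 51.3 and 39.5 CPM against 64.9, 54.6 and 76.0 CPM in Control. The log2 ratio of these arms differed by −0.90 ± 0.176 (standard error) with no overlap (two-sided exact permutation p = 0.1, the smallest possible).

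Each of these calls was lost without at least 1 library. Without Control replicate 1, Control replicate 2 and DMSO + Glu replicates 1, 2 and 3 in turn, the adjusted p in edgeR was 0.229, 0.0918, 0.130, 0.0929 and 0.161 for miR-72-5p and 0.198, 0.175, 0.0778, 0.103 and 0.109 for miR-73-3p. For miR-72-3p it was 0.131 without Control replicate 3 and 0.109 without DMSO + Glu replicate 3. By library totals it was 0.0881 for miR-72-3p and 0.0885 for miR-73-3p, and with all 12 libraries in 1 fit 0.0782 for miR-72-3p.

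Against Control, Nar + Glu showed a rise of miR-73-3p and a fall of miR-72-3p. These were 2 of 6 members with an adjusted p under 0.05, where 47.5% of the 223 miRNAs tested were called. miR-73-3p had a log2FC of 0.56 (standard error 0.126, adjusted p = 0.00165 in edgeR). Its adjusted p was at most 0.0136 under every alternative tried, among them the test of DESeq2 and each library left out. For miR-72-3p, at 40.3, 41.4 and 33.8 CPM in Nar + Glu, the log2FC was −0.77 (standard error 0.158, adjusted p = 0.000882 in edgeR). It was the 1 member past the study's thresholds, as were 34.5% of all miRNAs. By library totals its log2FC was −0.32 (adjusted p = 0.136 in edgeR). Its ratio to miR-72-5p, free of the scaling, differed from Control by −0.85 ± 0.170 (standard error) with no overlap (two-sided exact permutation p = 0.1, the smallest possible).

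Between Nar + Glu and Glu, miR-73-5p was the 1 of 6 members with an adjusted p under 0.05, against 9.13% of the 219 miRNAs tested. It rose from 90.2, 71.9 and 80.5 CPM in Glu to 118, 106 and 125 CPM in Nar + Glu, and the groups did not overlap. Its log2FC was 0.58 (standard error 0.157, adjusted p = 0.0437 in edgeR). The adjusted p in edgeR was 0.133 without Glu replicate 2 and 0.132, 0.116 and 0.0813 without Nar + Glu replicates 1, 2 and 3. It was also above 0.05 with the size factors of DESeq2 (0.0680), without a filter (0.0822) and at a mean count of at least 100 (0.0520). Past the study's thresholds were 0 members and 16.4% of all miRNAs.

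Taking the groups by mean level, the family arms did not share an order. miR-72-5p ran from Control (24774 CPM) and Nar + Glu (26443 CPM) to Glu (30725 CPM) and DMSO + Glu (32349 CPM). For miR-73-3p the order was Control (2269 CPM), DMSO + Glu (2868 CPM), Glu (3209 CPM) and Nar + Glu (3382 CPM). For miR-74-3p it was DMSO + Glu (260.3 CPM), Control (285 CPM), Glu (312 CPM) and Nar + Glu (348 CPM). Of the neighbours in these orders, only Control and DMSO + Glu for miR-73-3p differed with an adjusted p under 0.05 in edgeR.

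**Figure D4:**
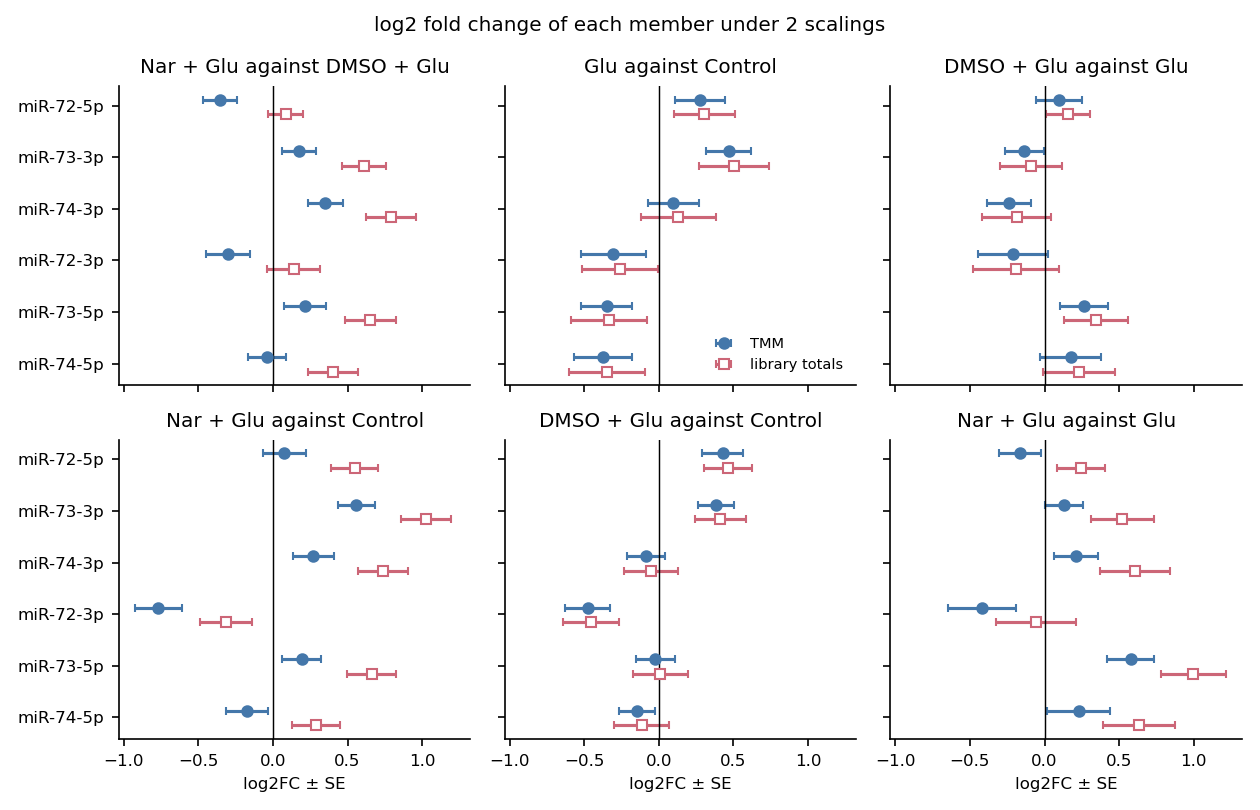
Log2FC of each arm with its standard error in the 6 comparisons, from edgeR with TMM (blue circles) and with library totals alone (open red squares). The scalings nearly coincide in the comparisons without Nar + Glu and lie apart in the 3 comparisons with it, where miR-72-5p goes from −0.36 to 0.08 against DMSO + Glu.

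The nearby mir-75 gene on chromosome X gave another pattern than miR-73-3p in the comparisons with Control. miR-75-3p was at 57.5 ± 4.91 CPM in Nar + Glu, 49.5 ± 13.6 CPM in DMSO + Glu, 69.2 ± 23.8 CPM in Glu and 89.9 ± 2.80 CPM in Control (SD, n = 3 each). It fell from Control to DMSO + Glu (log2FC −0.82, standard error 0.159, adjusted p = 0.00189 in edgeR) and to Nar + Glu (log2FC −0.66, standard error 0.138, adjusted p = 0.000903 in edgeR), where miR-73-3p rose. In Nar + Glu against DMSO + Glu its log2FC was 0.15 (adjusted p = 0.626 in edgeR), near the 0.17 of miR-73-3p. miR-75-5p averaged 21.3 counts per library, and 0 of its 6 comparisons had an adjusted p or an unadjusted p under 0.05 in edgeR.

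The pattern of each family arm over the 12 libraries was compared with those of 136 other miRNAs with a mean count of at least 100. The measure was the root mean square (RMS) difference of log2 levels, each centred on its own mean. It describes likeness in these libraries, which share the groups and the scaling. For miR-72-5p the closest were miR-81-3p (0.125), miR-82-3p (0.132) and miR-229-3p (0.152), against a median of 0.326 over all. For miR-73-3p they were miR-87-3p (0.131), miR-233-3p (0.133) and miR-90-3p (0.170), and for miR-74-3p miR-54-5p (0.125), miR-60-3p (0.126) and miR-232-3p (0.149). Family arms were not each other's nearest. miR-74-3p was in place 19 for miR-73-3p (0.216), which in turn was in place 14 for miR-74-3p. miR-72-5p was in places 28 (0.240) and 53 (0.313) for miR-73-3p and miR-74-3p. A flat pattern without any change would differ by 0.242 from miR-73-3p and by 0.208 from miR-74-3p. Neither of the other family arms was nearer to miR-74-3p than that.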

How the data were processed

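The authors filtered the reads, used Cutadapt 1.14 to remove the adapter and short fragments, and obtained mature miRNA counts with mirdeep2. They deposited raw read counts, without normalization, as 1 table and as 1 file per library, and these held equal values in 12 of 12 libraries. The submitters' processing notes name the build WBcel235. How reads that match more than 1 miRNA were assigned is not stated in the sources, so reads shared between similar members could not be checked, and no mature sequences were analysed here. Of the 268 entries, 5 repeated a name and were dropped. Per the labels, RNA went through poly(A) enrichment before the small RNA kit.

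Each comparison was fitted on its 6 libraries with edgeR 4.0.16 in R 4.3.3 (TMM, filterByExpr with a minimum count of 10, quasi-likelihood test), and p-values were adjusted by Benjamini-Hochberg over all miRNAs tested. Ratios (pseudocount 0.5) and shares were compared by two-sided exact permutation tests (scipy 1.17.1) over the 10 divisions of 6 libraries. Alternatives were DESeq2 1.42.0 and its size factors, library totals, each library left out, 1 fit of all 12 libraries, a replicate block, no filter, a filter at a mean count of 100, a pseudocount of 5 and other denominators of the share. Members, lists and comparisons were chosen with earlier results of these data known. Besides the 6 members, the miRNAs named are those with genes within 10 kb, the neighbours of miR-72-5p in level, the 3 closest in pattern, miR-1-3p and the markers.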

Additional observations from a re-analysis of the deposited data

How the results depend on the processing

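All values are log2FC unless another quantity is named, and the cause of a change was not tested unless stated. For Nar + Glu against DMSO + Glu, miR-72-5p went from −0.36 to −0.32 with DESeq2's size factors, −0.30 without a filter, −0.25 with a mean count of at least 100 and −0.29 with all 12 libraries in 1 fit, losing its call each time, and to 0.0840 by library totals. miR-74-3p lost its call with all 12 libraries (0.42) and with the replicate block (0.35, adjusted p = 0.0766 in edgeR). By library totals miR-73-3p (0.61), miR-73-5p (0.65) and miR-74-5p gained calls, where 91 of the 219 miRNAs were called, 89 of them higher. At a mean count of 100 miR-73-3p was at 0.27 and miR-72-3p at −0.19. Library totals turned miR-72-3p to 0.14. miR-74-5p, at −0.04, turned to 0.0029 with DESeq2's size factors, 0.40 by totals, 0.0030 with the DESeq2 test, 0.0193 without a filter, 0.0699 with the mean count of 100 and 0.0274 with all 12 libraries.

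For Glu against Control, miR-73-3p gained a call with DESeq2's size factors (0.47), the DESeq2 test (0.47), a mean count of 100 (0.44), all 12 libraries (0.50) and the replicate block (0.47). For DMSO + Glu against Control, miR-72-5p lost its call with DESeq2's size factors (0.39), no filter (0.39), a mean count of 100 (0.35) and all 12 libraries (0.38), and miR-73-3p lost its call by totals (0.41), with a mean count of 100 (0.30) and with all 12 libraries (0.34). There miR-72-3p lost its call by totals (−0.45) and with all 12 libraries (−0.52). Library totals turned miR-73-5p to 0.0104 there. For Nar + Glu against Control, totals gave calls to miR-72-5p (0.55), miR-73-5p (0.66) and miR-74-3p (0.74), ended that of miR-72-3p (−0.32) and turned miR-74-5p to 0.29. Totals called 116 of the 223 miRNAs in that comparison, 109 of them higher. For Nar + Glu against Glu, totals turned miR-72-5p to 0.24 and gave calls to miR-74-3p (0.61) and miR-74-5p (0.63). There they called 83 of the 219 miRNAs, 80 of them higher. The call of miR-73-5p there was lost with DESeq2's size factors (0.50), no filter (0.50), a mean count of 100 (0.59) and the replicate block (0.58, adjusted p = 0.1005 in edgeR). The family share differed by −0.0647 percentage points (without miR-1-3p) and −0.53 (TMM-scaled sizes) between Nar + Glu and DMSO + Glu, and by −0.40 (TMM-scaled sizes) between Nar + Glu and Glu. The shift by totals is the shift of the median of all miRNAs given with the scaling.

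Leaving out 1 library gave, for Nar + Glu against DMSO + Glu, −0.35 to −0.26 for miR-72-5p, 0.36 to 0.45 for miR-74-3p, 0.16 to 0.29 for miR-73-3p, −0.36 to −0.15 for miR-72-3p, 0.18 to 0.38 for miR-73-5p and −0.0307 to 0.11 for miR-74-5p. It gave 0.41 to 0.55 for miR-73-3p and −0.0604 to 0.25 for miR-74-3p, −0.62 to −0.0787 for miR-72-3p and −0.56 to −0.21 for miR-74-5p in Glu against Control, −0.43 to 0.12 for miR-72-3p, −0.29 to −0.0591 for miR-74-3p and 0.13 to 0.37 for miR-73-5p in DMSO + Glu against Glu, and −6.5e-05 to 0.12 for miR-72-5p and 0.16 to 0.33 for miR-74-3p in Nar + Glu against Control. For DMSO + Glu against Control the ranges were 0.27 to 0.47 for miR-72-5p, 0.25 to 0.47 for miR-73-3p, −0.20 to 0.0505 for miR-73-5p and −0.28 to 0.0257 for miR-74-3p. The log2 ratio of the 2 arms of a hairpin, scarcer over commoner, crossed 0 for miR-72 in Nar + Glu against DMSO + Glu (−0.0252 to 0.16), DMSO + Glu against Glu (−0.55 to 0.0803) and Nar + Glu against Glu (−0.49 to 0.14), for miR-73 in Nar + Glu against DMSO + Glu (−0.0858 to 0.21), and for miR-74 in DMSO + Glu against Control (−0.18 to 0.0590) and Nar + Glu against Glu (−0.28 to 0.37). That of miR-74-3p to miR-73-3p crossed 0 in Nar + Glu against Glu (−0.0503 to 0.17). The ratios of miR-73-3p and miR-74-3p to miR-72-5p in Nar + Glu against DMSO + Glu stayed at 0.49 to 0.57 and 0.67 to 0.74. Of all recomputed log2 ratios, 243 kept their direction and 9, all of them without 1 library, did not.

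Counts of miRNAs with an adjusted p under 0.05 ranged over all settings from 17 to 91 for Nar + Glu against DMSO + Glu (47 as reported), 4 to 47 for Glu against Control (19), 0 to 12 for DMSO + Glu against Glu (0, with 12 without Glu replicate 3), 80 to 116 for Nar + Glu against Control (106), 24 to 59 for DMSO + Glu against Control (49) and 0 to 83 for Nar + Glu against Glu (20). By the study's thresholds they ranged from 19 to 65 (29), 17 to 40 (31), 3 to 22 (13), 55 to 104 (77), 15 to 34 (26) and 16 to 84 (36), in the same order. No source pairs libraries of the same number, and their deviations correlated above 0.1 in every pair in none of the 6 comparisons (−0.16, 0.32 and −0.13 for Nar + Glu against DMSO + Glu). With the replicate block the adjusted counts were 27, 47, 0, 81, 55 and 13. The family arms had at least 852 counts in every library, so precision rests mainly on the 3 libraries per group.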
